A study of Mus musculus with 12 samples.

Results

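The genes described here are those of the cytosolic ribosomal proteins in mouse liver, and they were chosen by symbol alone: every gene whose symbol starts with Rpl or Rps followed by a digit, plus Rpsa, Rplp0, Rplp1 and Rplp2, without symbols holding -ps, which mark pseudogenes (8 symbols), and without the S6 kinases (10 symbols). This gave 88 of the 16821 genes listed. Of these, 31 encode proteins of the small (40S) subunit and 46 proteins of the large (60S) subunit, 10 are copies or relatives of such a gene (Rps27l, Rpl22l1, Rpl36al, Rpl39l, Rpl3l, Rpl7l1, Rpl32l, Rpl37rt, Rpl6l and Rps23rg1), and Rps19bp1 encodes a protein that binds Rps19 and is not itself part of the ribosome. Liver RNA was sequenced from 12 adult male C57BL/6J mice, 6 of a sedentary control group (Con) and 6 of a chronic exercise group (Exe) trained by moderate-intensity treadmill running over 6 weeks. No gene was altered and no drug was given in either group. All livers were perfused with saline, and those of the Exe group were taken within a day of the last run, so that lasting effects of the training and effects of the last bout cannot be told apart. Each mouse gave its own library, named Con 1 to Con 6 and Exe 1 to Exe 6, so the spread within a group is that between animals.

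A ribosome is built from 2 subunits. The small subunit holds the messenger RNA and reads its codons, and the large subunit joins the amino acids into a chain. Each subunit is a core of ribosomal RNA covered by proteins that are, with few exceptions, needed in 1 copy per ribosome. The messenger RNAs of these proteins start with a C followed by a run of pyrimidines, called a 5' terminal oligopyrimidine (TOP) tract, through which the kinase complex mTORC1 and the RNA-binding protein Larp1 hold back or release their translation as a group and protect them from decay. The liver makes most of the proteins of blood plasma and its ribosome content follows feeding and growth.

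The sequences around the start sites are shown first, because the TOP tract is the feature that ties these genes together. RefSeq start windows (build GRCm38.p6, from 250 bases before to 50 after each annotated start) could be matched for 67 of the 88 genes, among them 57 of the 77 genes of the 2 subunits, which have 67 such windows. Below are 40 bases before and 20 bases after the annotated start, from 5' to 3' on the gene's strand. The first 4 genes were chosen because a tract of C followed by at least 4 further C or T bases starts exactly at the annotated position, and the tract is in capitals. They are Rps18 (chr17:33955646-33955705, minus strand), Rps6 (chr4:86857348-86857407, minus strand), Rps10 (chr17:27635225-27635284, minus strand) and Rpl38 (chr11:114668540-114668599, plus strand).
Rps18: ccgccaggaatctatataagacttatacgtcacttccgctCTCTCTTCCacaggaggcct
Rps6: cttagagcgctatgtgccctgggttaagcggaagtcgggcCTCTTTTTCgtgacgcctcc
Rps10: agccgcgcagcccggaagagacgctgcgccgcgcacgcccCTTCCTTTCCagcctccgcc
Rpl38: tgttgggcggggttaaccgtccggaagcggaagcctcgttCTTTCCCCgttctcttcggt
The next 3, Rps25 (chr9:44407674-44407733, plus strand), Rps4x (chrX:102189372-102189431, minus strand) and Rpl12 (chr2:32961672-32961731, plus strand), are genes with some of the clearest differences between the groups below and have no such tract at the annotated position. In the windows of Rps25 and Rpl12, pyrimidine runs lie close to the annotated start, before it in Rps25 and after it in Rpl12.
Rps25: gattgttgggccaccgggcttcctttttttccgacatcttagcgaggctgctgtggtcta
Rps4x: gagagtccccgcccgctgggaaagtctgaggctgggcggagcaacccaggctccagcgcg
Rpl12: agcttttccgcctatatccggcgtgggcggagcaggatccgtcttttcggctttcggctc
In all, 13 of the 67 windows (19.4%) had a tract at the annotated start, against 2.51% of the 32851 windows of all genes, and the tracts were 5 to 13 bases long with a median of 8. A run of at least 8 pyrimidines anywhere from 20 bases before to 50 after the start was found in 70.1% of the windows, against 25.4% of all. The letters CCGGAAG, read on both strands, were found in 37.3% against 8.86% of all windows, AAGATGG in 16.4% against 6.34% and GGGCGG in 61.2% against 35.7%. TATAAA on the gene's strand was found in 7.46% against 8.32%. The searches for pyrimidine runs can overlap those for the other letters, and a match describes the letters only.

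Levels are given as FPKM, the sequenced fragments of a gene divided by its transcript length and by the mapped fragments of the library, which are thus corrected for length and can be set side by side between genes. The 77 subunit genes were among the most abundant transcripts of these livers, with 69 of them among the 500 highest genes. Their mean FPKM over the 12 mice ran from 12.4 for Rps15a to 1163 for Rps2, with a median of 391. The middle 50% lay between 272 and 548 FPKM, a 2.02-fold range, and 59 genes lay between 200 and 700 FPKM. Together they made up 3.92% ± 0.215 (SD, n = 6) of all FPKM in Con mice and 4.42% ± 0.324 (SD, n = 6) in Exe mice.

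The most abundant 40S gene was Rps2, whose protein lies at the entry of the messenger RNA channel. Its FPKM had a lowest, median and highest value of 995, 1073 and 1304 in Con mice and 1134, 1203 and 1330 in Exe mice. Rps18, Rps27 and Rps15 were also among the highest, with means of 875 to 587 FPKM in Con mice and 973 to 649 in Exe mice. Of the 60S genes, Rpl10, which is among the last proteins to join the large subunit, was highest, with 888 ± 37.6 FPKM in Con and 957 ± 48.8 in Exe mice (SD, n = 6 each). Rpl38, Rpl28, Rpl41 and Rplp1 came next, with means of 829 to 710 FPKM in Con mice and 904 to 784 in Exe mice. Rpl41 is the smallest ribosomal protein, and Rplp1 belongs with Rplp0 and Rplp2 to the stalk that calls elongation factors to the ribosome. Only 3 subunit genes lay under 50 FPKM, namely Rps15a at 12.4, Rpl22 at 35.9 and Rps20 at 36.6 (Rps20 was named after its value was seen). The other 74 lay near 100 FPKM or above, as the plot of levels shows. The low listed values of these 3 genes were not checked against read alignments, and genes with many pseudogenes can lose or share fragments when reads are assigned.

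**Figure D1:**
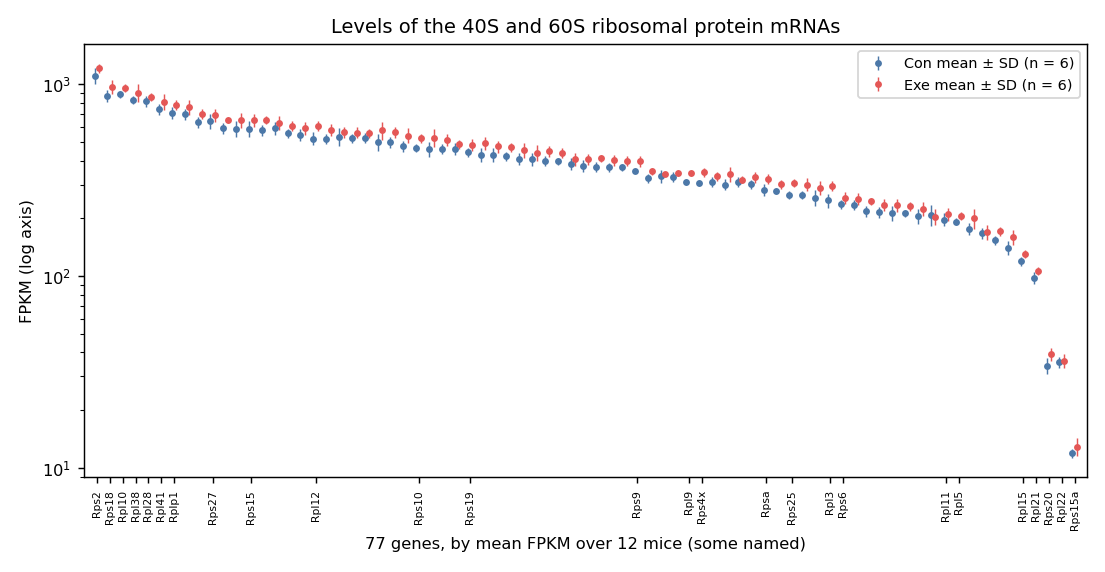
Mean FPKM (log axis) of the 77 subunit genes in Con mice (blue) and Exe mice (red), ordered by the mean over the 12 mice, with bars for the SD over 6 mice and names for some of the genes described in the text. Levels run from 12.4 FPKM (Rps15a) to 1163 FPKM (Rps2), and most red points lie slightly above their blue partners.

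The order of the levels was much the same in every mouse. Across the 77 genes, which are not independent replicates, Spearman's rho between mice was at least 0.988 for the 66 pairs of mice, which share the lengths used for FPKM. Neighbours in the order, in contrast, were mostly not separated. Of the 76 neighbouring pairs, 7 kept their order in all 12 mice, and 13 had a mean gap beyond 1 SD of the gap. The 7 pairs were Rps2 above Rps18, Rps9 above Rplp0, Rps3 above Rpl37, Rpl37 above Rpl15, Rpl15 above Rpl21, Rpl21 above Rps20 and Rpl22 above Rps15a. The subunit genes also varied little between animals. Their coefficient of variation over the 12 mice had a median of 8.12%, against 11.7% over all genes tested, and ran from 5.25% for Rpl7 to 12.5%. Median levels were 391 FPKM for the subunit genes and 7.81 for all genes tested, so variation was not compared at like abundance.

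The question of the comparison was whether weeks of running changed the livers' stock of these messenger RNAs. In Exe mice nearly all of them were slightly higher than in Con mice, with summed FPKM 1.098 times as high, and no single gene passed the test across all genes. Log2(FPKM + 1) was compared with limma over the 10241 genes with at least 1 FPKM in at least 6 of the 12 mice. Of the 88 genes, 85 were fitted, and Rpl6l, Rpl39l and Rpl3l were below that level. All 77 subunit genes were fitted. Of the 85 genes, 82 had a log2 fold change above 0 (76 after quantile normalization and 84 after scaling each mouse to the same sum), and their median was 0.13. Over all genes tested 57.5% were above 0, with a median of 0.02. The adjusted p (limma, Benjamini-Hochberg) was at or above 0.657 for each of the 85 genes. With limma, 0 of the 85 reached an adjusted p of 0.05, and over all genes the share was 0%.

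At an unadjusted p of 0.05 (limma), 40 of the 85 genes were higher in Exe mice and 0 were lower. The background was 4.27% of all genes tested for higher and 1.94% for lower, against 47.1% of the 85 for higher. The genes share their libraries and move together from mouse to mouse, so the 40 are not 40 separate observations. The count depended on single animals and on the scaling. It was 21 without Exe 4, 23 without Exe 2, 23 without Con 3, 24 without Con 6 and 62 without Con 4. In the same order, 4.54%, 2.47%, 3.48%, 3.4% and 5.82% of all genes tested were higher at that p. After quantile normalization between mice it was 12, all higher, while over all genes 348 were higher and 269 lower. With each mouse scaled to the same FPKM sum it was 57, with 684 higher and 93 lower over all genes, where the values as deposited gave 437 and 199.

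**Figure D2:**
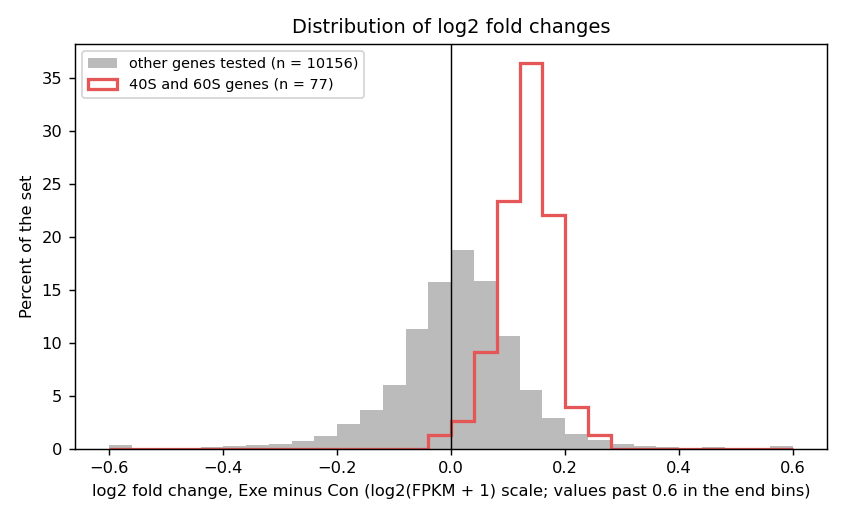
Log2 fold change, Exe minus Con, of the 77 subunit genes (red outline) and of the other 10156 genes tested (grey), each as the percent of its set per bin. The subunit genes have a median of 0.13 and lie mostly between 0.05 and 0.2. The other genes have a median of 0.02, with lower and upper quartiles of -0.05 and 0.07.

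The differences were small and alike. Over the 77 subunit genes the log2 fold change had a median of 0.13, which is 9.75%, with the middle 50% between 0.11 and 0.17 and a full range from -0.03 to 0.25. It was above 0.1 for 64 of them (83.1%), against 17.1% of all genes tested. The 31 genes of the 40S subunit were all above 0, with a median of 0.15, and 19 of them had an unadjusted p under 0.05. Of the 46 genes of the 60S subunit, 45 were above 0, with a median of 0.12, and 19 had an unadjusted p under 0.05. The exception was Rpl27, with a log2 fold change of -0.03, which was above 0 after scaling each mouse to the same sum (Rpl27 was named after its value was seen). The summed FPKM of the 40S genes was 12854 ± 709 in Con and 14222 ± 848 in Exe mice, and that of the 60S genes was 18124 ± 977 and 19795 ± 1114 (SD, n = 6 each). The ratio of the 60S to the 40S sum was 1.41 ± 0.013 in Con and 1.39 ± 0.0092 in Exe mice (SD, n = 6 each), and these ranges overlapped, from 1.39 to 1.42 and from 1.38 to 1.40.

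Mouse by mouse, the subunit genes moved together. For each gene the deviation of a mouse from the mean over the 12 mice was taken on the log2 scale, and the median over the 77 genes gave 1 value per mouse. In Con mice 1 to 6 these medians were -0.06, -0.09, -0.14, 0.07, -0.07 and -0.11. In Exe mice 1 to 6 they were -0.01, 0.15, 0.03, 0.18, 0.02 and 0.05. Of the Con mice, 5 lay below all 6 Exe mice, and Con 4 lay above 4 Exe mice and below Exe 2 and Exe 4. The highest of the 12 mice was Exe 2 or Exe 4 for 70 of the 77 genes (90.9%), against 30.9% of all genes tested. The highest Con mouse was Con 4 for 72 genes (93.5%), against 26.3% of all, and the lowest mouse was a Con mouse for 74 genes (96.1%), against 53.3% of all. Summed over the 77 genes, FPKM ran from 29222 to 34150 in Con mice and from 32200 to 36920 in Exe mice, with group means in a ratio of 1.098.

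**Figure D3:**
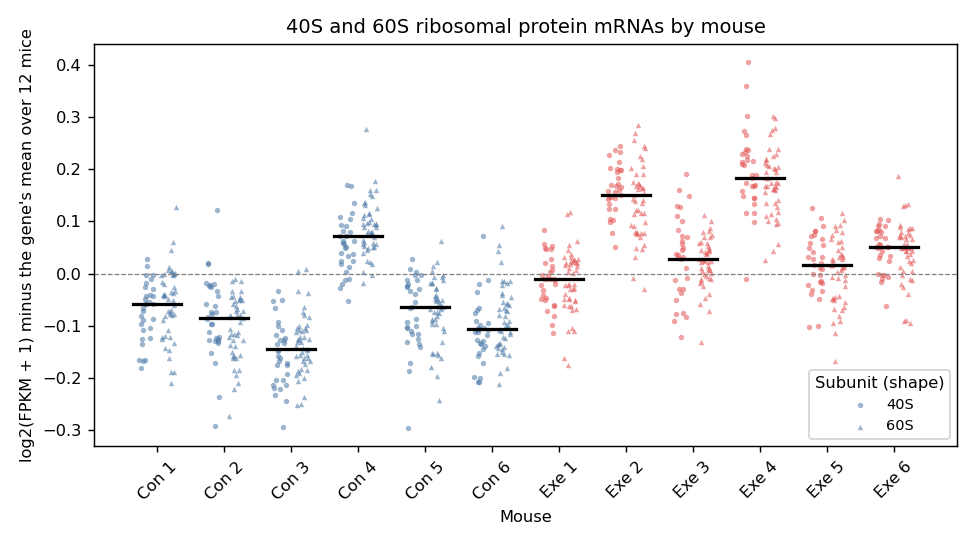
Deviation of each of the 77 subunit genes from its own mean over the 12 mice, on the log2(FPKM + 1) scale, by mouse (Con blue, Exe red, circles for 40S and triangles for 60S genes, black bar for the median). The medians of Exe 2 (0.15) and Exe 4 (0.18) are highest, and Con 4 (0.07) stands apart from the other Con mice, which lie between -0.14 and -0.06.

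In 3 genes every Exe mouse lay above every Con mouse, and all 3 were subunit genes (3.9% of the 77, against 0.234% of all genes tested), while in 0 of the 85 every Exe mouse lay below every Con mouse (0.0195% of all). Rps25, a protein of the head of the 40S subunit that some viral messenger RNAs need for their translation, had a lowest, median and highest FPKM of 253, 266 and 282 in Con mice and of 296, 299.9 and 329.9 in Exe mice. Its log2 fold change was 0.20 ± 0.051 (SE, n = 6 each), with an adjusted p of 0.657 (limma, Benjamini-Hochberg). Rps4x, an X-linked gene for a 40S protein, had 297, 300.1 and 319 FPKM in Con mice and 331, 342 and 379 in Exe mice. Its log2 fold change was 0.19 ± 0.05 (SE, n = 6 each), with an adjusted p of 0.708 (limma, Benjamini-Hochberg). Rpl3, whose protein reaches close to the centre where peptide bonds are made, had 223, 249 and 271 FPKM in Con mice and 272, 292 and 317 in Exe mice. The groups of Rpl3 were therefore apart by a narrow margin, and its log2 fold change of 0.25 ± 0.064 (SE, n = 6 each) was the highest of the subunit genes, with an adjusted p of 0.657 (limma, Benjamini-Hochberg).

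**Figure D4:**
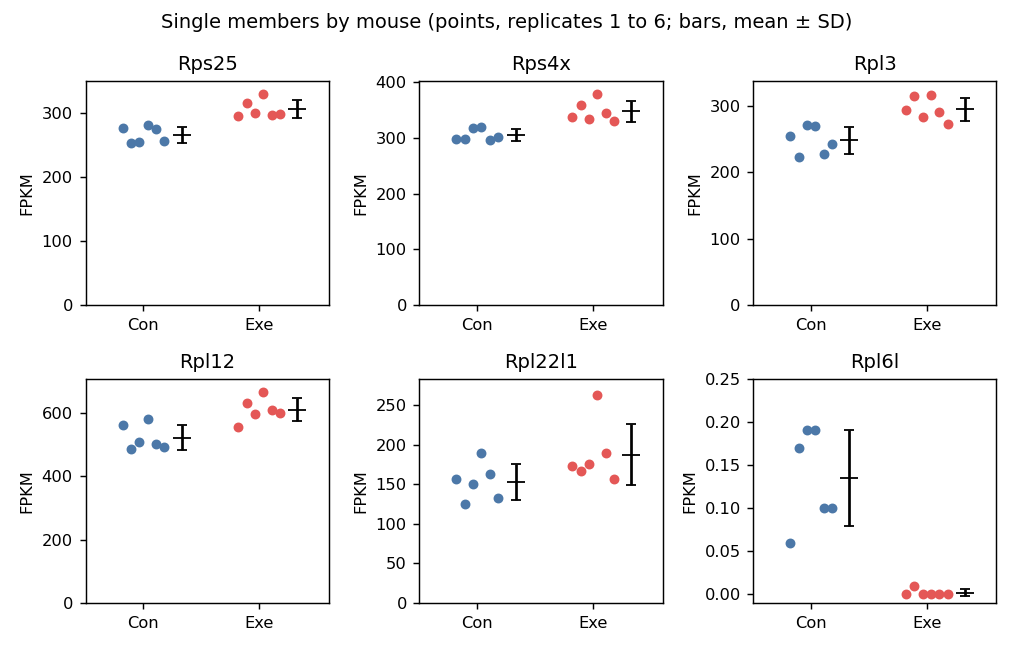
FPKM of 6 single genes by mouse (Con blue, Exe red, replicates 1 to 6 from left to right) with the mean and SD over 6 mice. Every Exe mouse lies above every Con mouse for Rps25, Rps4x and Rpl3, single mice overlap for Rpl12, Exe 4 stands apart for Rpl22l1 at 263 FPKM, and Rpl6l lies at or under 0.19 FPKM in every mouse.

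Other genes with a small unadjusted p showed an overlap of single mice. Rpl12, which forms the base of the stalk, had a lowest, median and highest FPKM of 486, 505 and 581 in Con mice and of 555, 604 and 665 in Exe mice. Its log2 fold change was 0.22 ± 0.063 (SE, n = 6 each), and 5 of 6 Exe mice lay above every Con mouse. Rpl9, another protein of the large subunit near the base of the stalk, ran from 298 to 331 FPKM in Con mice and from 331 to 367 in Exe mice, so that Con 4 and Exe 1 met at 331. Rps9, an early binder of the small subunit's RNA, had 355 ± 9.63 FPKM in Con and 399 ± 26.1 in Exe mice (SD, n = 6 each). Rpsa, a protein near the exit of the messenger RNA that is also known as the laminin receptor, had 282 ± 21.1 and 321 ± 19.6 FPKM, a log2 fold change of 0.19. The remaining genes of the 12 with the smallest p were Rps10, Rps13, Rpl7a, Rpl10a and Rpl39, with log2 fold changes of 0.16 to 0.18. All 12 had adjusted p-values at or above 0.657 and below 0.8 (limma, Benjamini-Hochberg).

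Of 4 members known beyond the ribosome itself, Rps19 had a log2 fold change of 0.13, the median of the subunit genes. Rps6, at 0.108, lay just above the lower quartile of the subunit genes (0.1078), and Rpl5 and Rpl11 lay below it at 0.10 and 0.09. Rps6 carries the sites that the S6 kinases phosphorylate downstream of mTORC1. Its FPKM had a lowest, median and highest value of 223, 235 and 258 in Con mice and of 229, 260.0 and 272 in Exe mice, and the groups overlapped (log2 fold change 0.11 ± 0.06, SE, n = 6 each). Rps19, the gene most often mutated in Diamond-Blackfan anaemia, had 442 ± 22.2 FPKM in Con and 485 ± 36.6 in Exe mice (SD, n = 6 each). Rpl5 and Rpl11 form, with 5S ribosomal RNA, the particle that binds Mdm2 and thereby links faulty ribosome assembly to p53. Rpl5 had 192 ± 8.04 and 206 ± 9.74 FPKM, and Rpl11 197 ± 15.6 and 211 ± 16.7, in Con and Exe mice (SD, n = 6 each). The stalk genes Rplp0, Rplp1 and Rplp2 had log2 fold changes of 0.13, 0.14 and 0.17, near those of both subunits (Rplp0 and Rplp2 were named for this role, after their values were seen). The lowest fold changes above 0 among the large subunit's genes included Rpl22 at 0.03 and Rpl29 at 0.04, and that of Rpl29 was below 0 after quantile normalization.

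The median fold change was not higher in genes with a start tract at the annotated position. The 13 genes with the tract, such as Rps18, Rps6, Rps10 and Rpl38 above, had a median log2 fold change of 0.12 with a range from 0.08 to 0.17. The 44 matched genes without it had a median of 0.14, and the 20 subunit genes without a matched window also had 0.14. Annotated starts can miss the true first base, so the genes without a tract here are not thereby genes without a TOP sequence.

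The copies of ribosomal protein genes were a mixed set. Of the 7 that could be fitted, 6 were above 0 in log2 fold change (57.5% of all genes tested were), with a median of 0.06, and 2, Rpl22l1 and Rpl36al, were higher at an unadjusted p under 0.05 (4.27% of all). How far a copy can be told from its parent depends on their sequences, and for this reason the first 90 coding bases of 2 pairs are shown, from mouse transcripts of GENCODE on GRCm38, with the bases that differ within the pair in capitals. Rpl36a and Rpl36al, both protein-coding, differ at 14 of the 90 bases.
Rpl36a: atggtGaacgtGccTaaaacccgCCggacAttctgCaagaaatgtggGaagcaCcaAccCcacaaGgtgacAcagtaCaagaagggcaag
Rpl36al: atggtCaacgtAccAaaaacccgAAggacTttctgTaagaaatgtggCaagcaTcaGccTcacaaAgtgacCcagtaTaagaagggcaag
Rpl6 and Rpl6l, the second annotated as a processed pseudogene, differ at 2.
Rpl6: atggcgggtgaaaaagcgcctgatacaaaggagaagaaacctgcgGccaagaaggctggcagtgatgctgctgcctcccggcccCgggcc
Rpl6l: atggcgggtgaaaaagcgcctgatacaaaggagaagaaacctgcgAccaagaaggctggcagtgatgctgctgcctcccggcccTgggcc
Aligned along the parent's whole coding sequence, identity was 99.7% for Rpl37rt with Rpl37 (1 of 294 positions differed), 96.5% for Rpl6l with Rpl6 and 95.3% for Rpl32l with Rpl32. It was 88% for Rpl36al, 85.4% for Rpl39l, 77.5% for Rps27l, 75.4% for Rpl3l, 70% for Rpl22l1 and 59.6% for Rpl7l1, each with its parent. No transcript of Rps23rg1 was matched. Values of the copies with over 95% identity are uncertain, since fragments of an abundant parent may be assigned to them.

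Rpl22l1 had the highest log2 fold change of all 85 genes fitted, and its level rested partly on 1 mouse. It is a close relative of Rpl22, and the 2 proteins can take each other's place on the ribosome. Its FPKM in Con mice 1 to 6 was 157, 125, 151, 189.6, 163 and 133, and in Exe mice 1 to 6 it was 173, 168, 176, 263, 189.6 and 157. Con 4 and Exe 5 were level at 189.6 and only Exe 4 lay above every Con mouse. The log2 fold change was 0.29 ± 0.12 (SE, n = 6 each), with an adjusted p of 0.799 (limma, Benjamini-Hochberg), and stayed between 0.18 and 0.35 over the alternatives tried. Rpl22l1 was the more abundant of the pair in these livers, at 430.4% ± 58.8 of the FPKM of Rpl22 in Con and 518% ± 94.1 in Exe mice (SD, n = 6 each). Those ratios overlapped, from 358% to 506% and from 414% to 686%.

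In the other copies that were fitted, the mean share of the parent was close in both groups for Rpl36al and Rps27l. Rpl36al stood at 191% ± 10.2 of Rpl36a in Con and 190.3% ± 8.501 in Exe mice, with both genes higher in Exe mice at log2 fold changes of 0.14. Rps27l, a relative of Rps27 that p53 is known to induce, stood at 66.5% ± 4.88 and 64.3% ± 4.05 of Rps27 (SD, n = 6 each). Its log2 fold change was 0.06, and it was below 0 after quantile normalization. Rpl7l1, a nucleolar relative of Rpl7 that works in ribosome assembly, stood at 8.22% ± 0.707 and 7.63% ± 0.667 of Rpl7, with a log2 fold change of -0.03 that was above 0 after scaling each mouse to the same sum. Rpl37rt, Rpl32l and Rps23rg1 lay between 0.279% and 1.89% of their parents on average. Rps19bp1, the partner of Rps19 that is no ribosomal protein, had the lowest log2 fold change of the 85, -0.07 ± 0.07 (SE, n = 6 each), with 20.2 ± 2.31 FPKM in Con and 19.2 ± 1.06 in Exe mice (SD, n = 6 each).

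Of the 3 genes below the level needed for the test, Rpl6l separated the groups. It was listed at 0.06, 0.17, 0.19, 0.19, 0.1 and 0.1 FPKM in Con mice 1 to 6, and at 0, 0.01, 0, 0, 0 and 0 in Exe mice 1 to 6. In the fit without a filter on low values, its adjusted p was 0.237 (limma, Benjamini-Hochberg). The direction was opposite to that of Rpl6 itself and of the subunit genes, the level was 0.0489% of that of Rpl6 in Con mice, and the near-identity shown above applies. Rpl39l, known from the testis, was above 0 in Con 1 (0.11 FPKM) and Exe 5 (0.31) and listed at 0 in the other 10 mice. Rpl3l, the form of Rpl3 used in striated muscle, was listed at 0 in 8 mice and reached at most 0.15 FPKM.

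The genes around the ribosome were described with the same fit, from lists of textbook members. Ribosome parts whose symbols fall outside the choice had differences of a similar size to those of the subunit genes. Rack1, a scaffold on the 40S head, and Fau, which is made as a fusion with a ubiquitin-like domain, had log2 fold changes of 0.16 and 0.19, and both had an unadjusted p under 0.05 (Rack1 238 ± 13.4 against 265 ± 11.2 FPKM, SD, n = 6 each). Of 22 genes for other TOP messenger RNAs, a list that includes both, 19 were fitted, of which 14 were above 0 (57.5% of all genes tested were) with a median of 0.05. Eef1b2, Eef1g and Hnrnpa1 were the others with an unadjusted p under 0.05 in the higher direction, at 0.15, 0.13 and 0.19. For Eef1b2, an exchange factor of translation elongation, every Exe mouse lay above every Con mouse (66.8 ± 3.52 against 73.9 ± 1.795 FPKM, SD, n = 6 each). Pabpc1, the poly(A)-binding protein, was lower in Exe mice at an unadjusted p under 0.05, at 84.5 ± 4.80 against 75.9 ± 4.83 FPKM (log2 fold change -0.15). Over all genes tested, 4.27% were higher and 1.94% lower at that p (limma).

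The machinery that builds ribosomes had smaller differences, and the counts above 0 that follow stand beside 57.5% of all genes tested. Counts at an unadjusted p under 0.05 (limma) stand beside 4.27% of all genes for higher and 1.94% for lower. Of 76 ribosome biogenesis genes fitted, 54 were above 0, with a median of 0.04. None was higher at an unadjusted p of 0.05, and 1, Wdr12, was lower at -0.15. Of 8 chaperones that escort new ribosomal proteins, 6 were above 0 with a median of 0.05, and Grwd1, which escorts Rpl3, had an unadjusted p under 0.05 at 0.16. Of 29 genes of mTORC1, its regulators and Larp1, 16 were above 0 with a median of 0.02. Among these, Sesn2, an inhibitor of mTORC1 that senses leucine, was lower at an unadjusted p under 0.05, with 2.49 ± 0.433 FPKM in Con and 1.89 ± 0.414 in Exe mice (SD, n = 6 each). Larp1 itself had a log2 fold change of 0.06 and Mtor one of -0.11. In these lists 0 genes reached an adjusted p of 0.05 (limma, Benjamini-Hochberg), and phosphorylation, which carries the activity of mTORC1, is not seen in RNA.

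**Figure D5:**
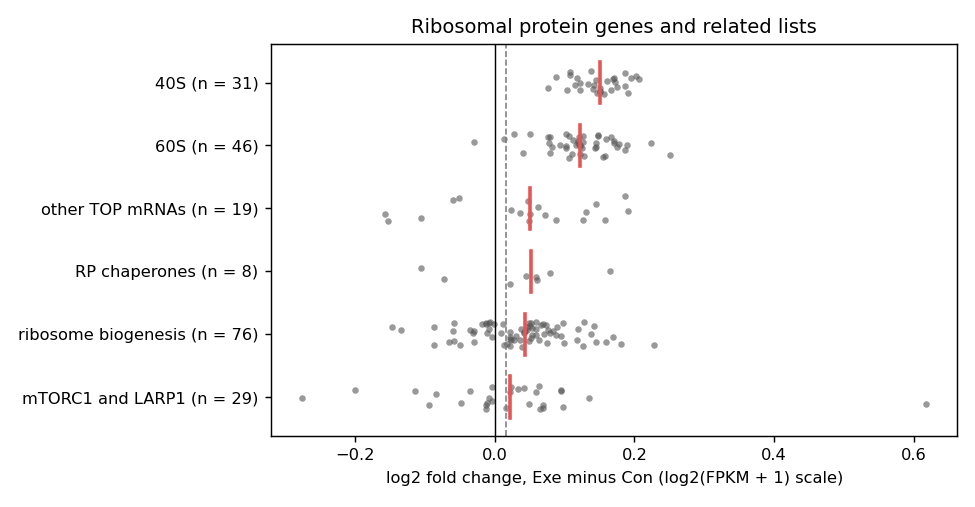
Log2 fold change, Exe minus Con, of each fitted gene (grey points) in the 2 subunits and in the lists around the ribosome, with the median of each list (red bar) and of all genes tested (dashed line, 0.02). Both subunits (medians 0.15 and 0.12) lie to the right of the biogenesis genes (0.04) and of the mTORC1 genes (0.02).

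Markers of cell types and of the acute phase were set beside these values, and counts above 0 stand beside 57.5% of all genes tested. The 8 hepatocyte markers were abundant in every mouse, as the liver label implies, and summed to 69360 to 84727 FPKM in Con and 76186 to 92503 in Exe mice, with 7 of 8 above 0 in log2 fold change. At an unadjusted p under 0.05 (limma), 2 of the 8 were higher, against 4.27% of all genes tested. The 7 acute-phase genes, such as Saa1, Saa2 and Orm2, which the liver raises in inflammation, were all below 0 in log2 fold change. Their median was -1.08, and 0 of them had an unadjusted p under 0.05 (limma). Their sums overlapped, from 3647 to 33579 FPKM in Con mice (median 14937) and from 3834 to 32755 in Exe mice (median 7420). The 3 mice with the lowest acute-phase sums were Con 4 (3647), Exe 4 (3834) and Exe 2 (4072), which were also the 3 mice with the highest medians of the subunit genes. The other mice did not follow this order throughout. Con 5 had the next lowest sum (4387) and a median of -0.07, which ranked 9 from the highest. Exe 5 had a sum of 32755, above all mice but Con 1, and a median of 0.02, which ranked 6 from the highest. With the acute-phase level as a covariate, 80 of 85 genes were above 0 and the median was 0.11. Without Con 1 and Exe 5, the mice with the highest acute-phase sums, 83 were above 0 and the median was 0.15. Of the red blood cell markers 4 of 5 were above 0, with sums of 235 to 903 and 400.3 to 1290 FPKM, and 1 was higher at an unadjusted p under 0.05. Of the Kupffer cell markers 0 of 6 were above 0, with sums of 130 to 243 and 90.6 to 229 FPKM, and 0 were lower at that p. The part of these in the difference was not tested, and in RNA of whole liver a change in the number of cells of a type and a change in RNA per cell cannot be told apart.

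Abundance and length also went with the fold change over other genes. Among the genes outside the chosen set, the median log2 fold change was 0.01 at a mean of 1 to 10 FPKM, 0.01 at 10 to 30, 0.04 at 30 to 100 and 0.05 at 100 to 1200 FPKM (666 genes, 71.8% above 0). For the 68 of them at 100 to 1200 FPKM with a median transcript under 600 bases it was 0.09, with 83.8% above 0, which lies nearer to the 0.13 of the subunit genes than the median of all genes does. By transcript length alone, the genes outside the set had medians of 0.029 under 600 bases and 0.024 at 600 to 1000. At 1000 to 2000 bases the median was 0.016, and above that it was 0.012. Within the subunit genes, the median was 0.14 for the 25 with transcripts under 600 bases, 0.12 for 38 of 600 to 1000 bases and 0.13 for the 14 that were longer. The sum of all FPKM was 791259 ± 24337 in Con and 770536 ± 19143 in Exe mice (SD, n = 6 each). Scaling to a common sum raised the median log2 fold change of the 85 fitted genes from 0.13 to 0.17. It raised that of all genes tested too, from 0.02 to 0.05. These classes were chosen after the data were seen, and the part of abundance or length in the difference was not tested. The depth in reads is unknown, but relative depth, estimated from 68 genes with very few fragments, was between 0.976 and 1.01 in the 12 mice. It was lowest in Exe 2 (0.976), Con 4 (0.983) and Exe 4 (0.9895), which also had the highest medians of the subunit genes. The part of depth in the difference was not tested.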

How the data were processed

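RNA extracted with TRIzol was sequenced on the DNBseq platform (paired reads). After removal of low-quality reads, HISAT was run by the authors against GRCm39, and the deposited values are FPKM per gene and mouse, to 2 decimals. The submitters' processing notes also name Bowtie2 and mm10, without a role. The tool and gene annotation behind the FPKM are not given in the sources used here. The authors tested with DESeq, which needs counts and could not be used on FPKM.

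Here, log2(FPKM + 1) was fitted with limma 3.58.1 (R 4.3.3; lmFit, eBayes with trend, group as the only term) on all 12 mice and the 10241 genes with at least 1 FPKM in at least 6 mice, with Benjamini-Hochberg adjustment over all of them. The pseudocount of 1 understates changes of low genes. The fit was tested on simulated data. Sequences were read with Python 3.11.15 from RefSeq (GRCm38.p6), matched by gene identifier, and from GENCODE tables, matched by gene symbol. No coordinate was converted.

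The genes and lists were chosen with earlier results of these data known. The genes named were the most and least abundant of each subunit, the 12 with the smallest p, those with the highest and lowest fold change, those whose groups do not overlap, the copies and genes below the filter, those with the largest and smallest coefficient of variation, Rps6, Rps19, Rpl5 and Rpl11, and list members at an unadjusted p under 0.05. Results for 2 genes are not reported here. Markers of B and plasma cells, T cells, neutrophils, endothelial, stellate and pancreatic acinar cells and cholangiocytes were also summed per mouse. Of these, 1 of 2 fitted B and plasma cell markers was higher at an unadjusted p under 0.05 and none of the others was (of the T cell markers 0 were fitted). Alternatives were quantile normalization, scaling to a common sum, a pseudocount of 0.1, no filter on low values, a stricter filter, robust moderation, a replicate block and each mouse left out in turn. An acute-phase covariate and leaving out Con 1 and Exe 5 together were added after seeing the data. FPKM give no read depth, so no counting error is given.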

Additional observations from a re-analysis of the deposited data

Results flagged for a closer look

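A value stood apart from the other 5 of its group by Dixon's criterion (the gap to the next mouse over the group's range, above the 95% critical value) in 11 of 94 sets of 6 mice, where chance flags about 1 in 20 sets, or 4.7 of them. In Con mice the library that stood apart was mostly Con 4. There, the 77 subunit genes made up 4.33% of all FPKM, against 3.92% in the next Con mouse. Con 4 was also above its group for Rps10 (512 FPKM, next 467), Rps15 (691 FPKM, next 583), Rpl11 (226 FPKM, next 198) and Rpl9 (331 FPKM, next 310.0). In Exe mice, Exe 4 was above its group for Rpl22l1 (263 FPKM, next 189.6), and the ratio of the 60S to the 40S sum was lowest in Exe 2 (1.38, next 1.39). The other 4 sets concern copies listed near 0, where 1 mouse above 0 is enough to stand apart: Rpl39l in Con 1 (0.11 FPKM) and in Exe 5 (0.31 FPKM), Rpl3l in Exe 3 (0.1 FPKM) and Rpl6l in Exe 2 (0.01 FPKM).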

How the results depend on the processing

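The number of the 85 genes at an unadjusted p under 0.05 was 40 and moved by over 1.5 times to 12 after quantile normalization, while with single mice left out it ran from 21 (without Exe 4) to 62 (without Con 4). Over all genes the count at an unadjusted p under 0.05 was 636, and 418 to 905 with single mice left out. At an adjusted p of 0.05 (limma) it was 0, and 1 without a filter (D630003M21Rik, not one of the genes described). The number of genes above 0 ran from 76 to 84 and their median log2 fold change from 0.08 (quantile normalization) to 0.17 (scaling to a common sum) over all alternatives. Of 796 values for 38 single genes under the alternatives, 784 kept their direction, and adjusted p-values ran from 0.438 to 1. Values that reversed were Rpl29 (-0.0176) and Rps27l (-0.0096) after quantile normalization, Rpl7l1 (0.0078) after scaling to a common sum, and Rpl32l with the acute-phase covariate (-0.0001). With single mice left out, Rpl22 ran from -0.0040 to 0.0630 (below 0 without Con 5 or Exe 2), Rpl32l from -0.0476 to 0.1301 (below 0 without Con 3 or Exe 4) and Rps23rg1 from -0.0336 to 0.0844 (below 0 without Con 2, Con 5, Exe 3 or Exe 6). Deviations of mice with the same number correlated between -0.48 and 0.17 and 1 of 6 Con mice correlated best with its own number, so the numbers were not taken as pairs. With the replicate block, 40 of the 85 genes were at an unadjusted p under 0.05, with a median of 0.13, and 0 at an adjusted p of 0.05 (limma), and over all genes 567 and 0. The cause of these shifts was not tested. Without read counts, neither the depth in reads nor the assignment of fragments between near-identical copies could be checked.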
